A study of Mus musculus with 6 samples.

Results

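The genes of the CD3 complex and of 6 further receptors of the T cell surface were examined in thymic lymphomas of Ikaros-deficient mice. The members were chosen by name, as all probe sets whose gene symbol was exactly Cd3e, Cd3d, Cd3g, Cd247, Cd2, Cd5, Cd6, Cd28, Thy1 or Cd27. This choice was made with earlier results of these data known. These 10 genes had 14 probe sets of the 45101 on the array, with 8 genes read by 1 probe set each, Cd28 by 2 and Cd247 by 4. The tested tumours came from 3 mice of genotype IkL/L Notch1f/f CD4-Cre+, aged 8 to 10 weeks, whose floxed Notch1 alleles lose the promoter and exon 1 where Cre is active. They were set against tumours of IkL/L Notch1+/+ CD4-Cre+ animals, 3 in number and 18 to 20 weeks old. All 6 mice carried the hypomorphic L allele of the Ikaros gene on both chromosomes and the CD4-Cre transgene, so neither group has normal Ikaros and no normal thymus serves as a baseline. CD4-Cre acts from the double-positive stage onward, so earlier thymocytes of the Notch1f/f mice still have intact alleles. Age and genotype changed together and cannot be told apart. Tumour cells were freed mechanically, with no sorting step in the labels, and each tumour was hybridised to 1 array.

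The T cell receptor binds antigen but has no signalling tail of its own. It is assembled with the CD3 gamma, delta and epsilon chains and the zeta chain encoded by Cd247, whose cytoplasmic tails carry the tyrosine motifs that Lck phosphorylates and that recruit Zap70. The other receptors tune this signal: CD2 is an adhesion receptor, CD5 and CD6 are scavenger-family receptors that dampen or modulate it, CD28 and CD27 are costimulators, and Thy1 is a lipid-anchored glycoprotein that marks T lineage cells in mice. Thymocytes acquire most of these proteins as they commit to the T lineage and pass the checkpoints of receptor assembly.

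Values are intensities on a linear scale, and differences are Notch1f/f minus Notch1+/+ of log2(intensity + 16), an offset that shrinks the differences of dim probe sets. Each array had a trimmed mean intensity of 100 by the authors' scaling, and 23.1% to 25.0% of probe sets on an array had an intensity over 100. The arrays of Notch1f/f tumour 2 and the Notch1+/+ tumours correlated at 0.955 to 0.961 across tested probe sets. This was higher than for Notch1f/f tumours 1 and 3, where the range was 0.918 to 0.938. The 3'/5' ratio of the beta-actin control probe sets was 1.35 to 1.64 in the Notch1f/f tumours, and 2.23 in Notch1+/+ tumour 1 and 1.36 and 1.38 in the other Notch1+/+ tumours. The T lineage part of the label held for every tumour, while transformation was not checked, since normal thymocytes express the same genes. Cd3d had an intensity of at least 2828.5, Thy1 of at least 3657 and Bcl11b, a T lineage transcription factor, of at least 1603. Of the 5 NK cell markers analysed, Ncr1, Klrk1 and Eomes reached at most 8.9 on any array and Prf1 at most 28.5, while Gzma, which T cells also express, had at least 1584 on every array. The number of arrays limits the precision of every value.

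Cd28 stood out among the 10 genes, with a level 2.17-fold higher on its brighter probe set in the Notch1f/f tumours and groups that did not overlap on either probe set. Cd3e and Cd6 had smaller differences in the same direction, of 0.56 ± 0.22 and 0.60 ± 0.25 (log2, SE). Thy1 and Cd27 had differences near 0. No member probe set passed an adjusted p of 0.05 in limma (0 of 13 tested), where 0.0185% of the 27022 tested probe sets passed. At an unadjusted p under 0.05, 4 of the 13 were higher in the Notch1f/f tumours and 0 were lower, against 5.94% of all tested probe sets that were higher and 7.6% that were lower. The groups did not overlap in 3 of the 13, all higher in Notch1f/f, where 8.13% of all tested probe sets did so in this direction and 10.4% in the other. Both counts hold the 2 Cd28 probe sets, which correlated at a Pearson's r of 0.994. By the brightest probe set, 3 of the 10 genes were higher at that p, against 6.97% of all tested genes. The groups of 2 of the 10 did not overlap, both higher, against 9.21% of all tested genes. The median difference was 0.37 over the 13 member probe sets and -0.04 over all tested probe sets. Represented by the brightest probe set, all 10 genes had a difference above 0, as did 48.4% of all tested genes. This count was 8 with quantile normalisation, where Thy1 and Cd27 turned below 0, 8 with array weights, where Cd5 and Thy1 did, and 8 without Notch1+/+ tumour 1, where Cd2 and Cd5 did. It was 9 without any single Notch1f/f tumour or without Notch1+/+ tumour 3. Cd247 was above 0 on its brightest probe set alone, and the mean of its tested probe sets was -0.043. The median of the 13 was 0.18 without Notch1+/+ tumour 1 and 0.22 with array weights.

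**Figure D1:**
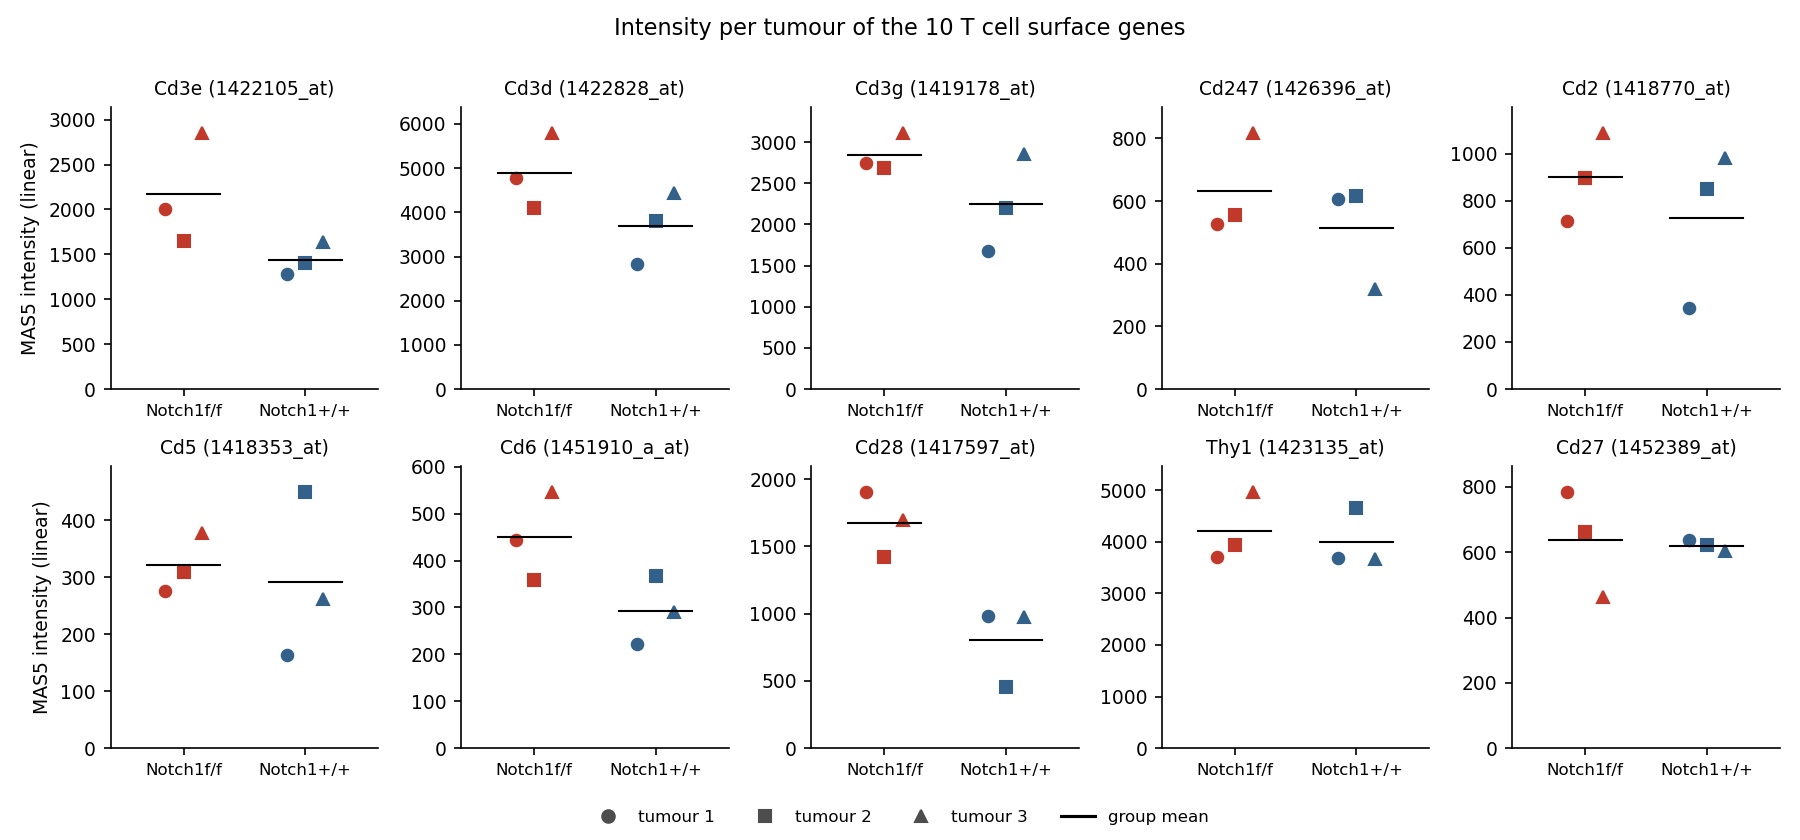
Linear MAS5 intensity of each of the 10 genes (brightest probe set, 1 panel each, y axes from 0), with Notch1f/f tumours on the left and Notch1+/+ tumours on the right of each panel. Symbols mark tumours 1 to 3 of a group and the line is the group mean. Only for Cd28 and Cd3e do the Notch1f/f tumours all lie above the Notch1+/+ tumours.

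The signalling chains come first. Cd3e, Cd3d and Cd3g lie side by side on chromosome 9, and the annotated starts of Cd3g and Cd3d are 1355 bases apart on opposite strands. All 3 genes were highest in Notch1f/f tumour 3 and lowest in Notch1+/+ tumour 1, as were Cd2 on chromosome 3 and Cd6 on chromosome 19. The pattern is thus not particular to these 3 genes. The 250 bases upstream of each of the 3 starts are shown. They run 5′ to 3′ on the strand of the gene, from RefSeq on build GRCm38.p6. The windows are chr9:45009612-45009861 (minus strand) for Cd3e, chr9:44981536-44981785 (plus strand) for Cd3d and chr9:44980432-44980681 (minus strand) for Cd3g. Capitals mark TGGGAA, the core that Ikaros binds and that lies within GTGGGAA, a sequence recognised by the Notch partner RBPJ, and CAGGTG or its reverse complement CACCTG, an E protein motif.
Cd3e: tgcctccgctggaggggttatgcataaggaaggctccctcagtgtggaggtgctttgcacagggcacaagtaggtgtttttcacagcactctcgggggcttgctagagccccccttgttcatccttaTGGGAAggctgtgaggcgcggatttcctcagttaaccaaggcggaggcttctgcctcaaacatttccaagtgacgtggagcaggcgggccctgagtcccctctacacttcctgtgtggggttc
Cd3d: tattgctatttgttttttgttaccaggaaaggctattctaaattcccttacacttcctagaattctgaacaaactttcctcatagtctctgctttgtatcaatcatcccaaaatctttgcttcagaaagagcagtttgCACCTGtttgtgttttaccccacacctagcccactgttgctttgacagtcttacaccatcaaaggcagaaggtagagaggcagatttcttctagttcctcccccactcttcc
Cd3g: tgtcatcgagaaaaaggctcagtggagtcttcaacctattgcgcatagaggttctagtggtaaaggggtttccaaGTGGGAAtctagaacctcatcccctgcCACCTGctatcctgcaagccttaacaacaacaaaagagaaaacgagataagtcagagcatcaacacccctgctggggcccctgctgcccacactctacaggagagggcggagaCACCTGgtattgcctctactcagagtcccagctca

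Of the 10 genes, 6 had a window in the promoter table, namely these 3, Cd247, Cd5 and Cd27. TGGGAA was found on either strand in 3 of the 6, Cd3e at 123 bases upstream of the start, Cd3g at 174 and Cd5 at 215, and in 21.6% of the 32851 windows of the table. The longer GTGGGAA, which contains it, was found in Cd3g alone of the 6 and in 5.42% of all windows. CAGGTG was present in 4 of the 6 (Cd3d, Cd3g, Cd247 and Cd5) and in 17.2% of all windows. TGTGGT, a Runx motif, was present in 0 of the 6 and in 14.0% of all windows. These are matches of letters and say nothing of binding.

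Cd3e encodes the epsilon chain, which pairs with gamma and with delta. Its probe set (1422105_at) had intensities of 2001, 1647.5 and 2853 in Notch1f/f tumours 1 to 3, against 1277, 1400 and 1636 in Notch1+/+ tumours 1 to 3. The groups did not overlap, but Notch1f/f tumour 2 and Notch1+/+ tumour 3 nearly touched, and Notch1f/f tumour 3 lay far above the rest. The means were 2167 ± 619.6 and 1437 ± 182 (SD, n = 3 each), and limma gave an adjusted p of 0.329 (95% interval of the log2 difference 0.07 to 1.05). Without Notch1f/f tumour 3 the difference was 0.34.

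Cd3d, the delta chain, had intensities of 4789, 4107 and 5798 in Notch1f/f tumours 1 to 3, against 2828.5, 3795 and 4438 in Notch1+/+ tumours 1 to 3. Its highest value was again in Notch1f/f tumour 3 and its lowest in Notch1+/+ tumour 1, with Notch1f/f tumour 2 below Notch1+/+ tumour 3, so the groups overlapped. The log2 difference was 0.42 ± 0.20 (SE), with a 95% interval of -0.03 to 0.86 and an adjusted p of 0.387 in limma. Cd3g, the gamma chain, had 2746, 2683 and 3112 in Notch1f/f tumours 1 to 3, against 1679, 2198 and 2853 in Notch1+/+ tumours 1 to 3. The Notch1f/f tumours were close together, and Notch1+/+ tumour 3 lay among them. The log2 difference of Cd3g was 0.37 ± 0.20 (95% interval -0.08 to 0.82, limma adjusted p = 0.435). Without Notch1+/+ tumour 1 the differences of Cd3d and Cd3g were 0.24 and 0.18, and that of Cd3e was 0.48.

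Cd247 encodes the zeta chain and, by alternative splicing in the mouse, the eta chain. Its 4 probe sets disagreed in direction. The brightest (1426396_at) had intensities of 526, 556 and 817 in Notch1f/f tumours 1 to 3, against 607, 615 and 321 in Notch1+/+ tumours 1 to 3. The groups overlapped, with Notch1f/f tumour 3 highest and Notch1+/+ tumour 3 lowest, and the log2 difference was 0.32 ± 0.29 (limma adjusted p = 0.643), or 0.022 without Notch1+/+ tumour 3. The next (1452539_a_at, a type that can read alternative transcripts of a gene) had 164, 216 and 194 in Notch1f/f tumours, against 212.5, 315 and 165 in Notch1+/+ tumours. Here the highest tumour was Notch1+/+ tumour 2, and the difference was -0.22 ± 0.27 (adjusted p = 0.746). On 1420716_at the intensities were 29.5, 26.1 and 29.1 in Notch1f/f tumours, against 47.7, 46.1 and 19.6 in Notch1+/+ tumours, a difference of -0.23 ± 0.28 (adjusted p = 0.727). The fourth, 1426079_at, had 0.9 to 12.6 in Notch1f/f tumours and 3.5 to 13.4 in Notch1+/+ tumours, and was not tested because it lay under the filter on dim probe sets. The mean of the 3 tested probe sets gave a difference of -0.04, below 0 where the brightest alone was above it. Notch1+/+ tumour 3 was the lowest Notch1+/+ tumour on all 4.

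**Figure D2:**
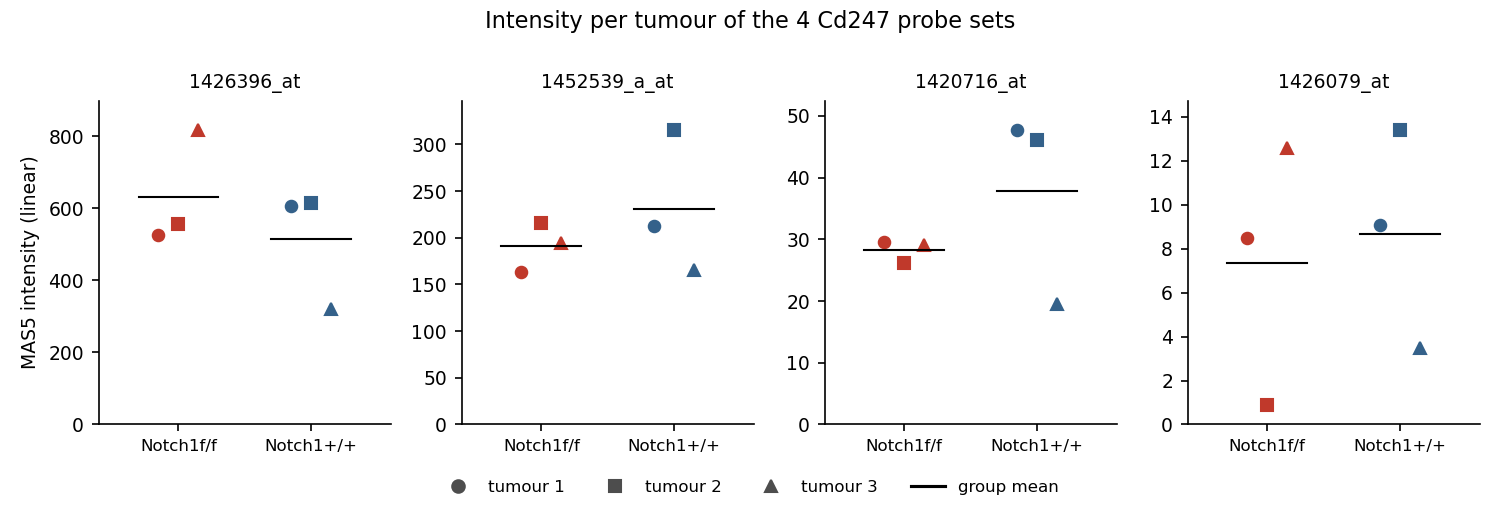
Linear MAS5 intensity of the 4 Cd247 probe sets, brightest on the left, each y axis from 0, Notch1f/f tumours left and Notch1+/+ tumours right in each panel, with lines at the group means. The brightest probe set has the higher mean in Notch1f/f tumours (633 against 514), and the other 3 have the higher mean in Notch1+/+ tumours.

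The mean log2 level of the 4 chains, 1 brightest probe set each, was 10.93, 10.82 and 11.33 in Notch1f/f tumours 1 to 3, against 10.46, 10.69 and 10.67 in Notch1+/+ tumours 1 to 3. It was highest in Notch1f/f tumour 3 and lowest in Notch1+/+ tumour 1. Across all 10 genes, Notch1f/f tumour 3 had the highest intensity for 7 (Cd3e, Cd3d, Cd3g, Cd247, Cd2, Cd6 and Thy1) and the lowest for Cd27. Notch1+/+ tumour 1 had the lowest for 6 (Cd3e, Cd3d, Cd3g, Cd2, Cd5 and Cd6). This is the tumour with the beta-actin 3'/5' ratio of 2.23, and the part of that ratio in these values was not tested. Its Gapdh 3'/5' ratio was 1.08, against 1.03 in Notch1f/f tumour 1 and 0.767 to 0.955 in the other tumours. In bulk tumours, fewer T cells and less of an RNA per T cell cannot be told apart. Of 5 other tested T lineage genes, 2 had a difference above 0, against 48.4% of all tested genes, and 3 below, with a median of -0.11. In Notch1+/+ tumour 1, Rag1 (2958) was the highest of the 6 tumours and Gata3 (253.7) the lowest.

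Among the adhesion and modulating receptors, Cd6 had the larger difference. Cd6 binds Alcam on other cells. Its intensities were 444, 358 and 546 in Notch1f/f tumours 1 to 3, against 222, 367 and 289 in Notch1+/+ tumours 1 to 3. Only Notch1f/f tumour 2, just below Notch1+/+ tumour 2, kept the groups from separating. The means were 449 ± 94.1 and 293 ± 72.4 (SD, n = 3 each), a log2 difference of 0.60 with a 95% interval of 0.04 to 1.16 and an adjusted p of 0.350 in limma.

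Cd5, which lies next to Cd6 on chromosome 19 and whose level on thymocytes follows the strength of receptor signalling, had 275, 310.1 and 377 in Notch1f/f tumours 1 to 3, against 163.5, 449.8 and 262 in Notch1+/+ tumours 1 to 3. The Notch1+/+ tumours held both the highest and the lowest value. The log2 difference was 0.23 ± 0.33 (95% interval -0.52 to 0.98, limma adjusted p = 0.788), and -0.11 without Notch1+/+ tumour 1 and 0.58 without Notch1+/+ tumour 2. Cd2, which binds CD48 in the mouse, had 714, 895.5 and 1088 in Notch1f/f tumours 1 to 3, against 346, 849 and 982 in Notch1+/+ tumours 1 to 3. Notch1+/+ tumour 1 alone was low, and the other 5 tumours were intermixed. Its log2 difference was 0.41 ± 0.36 (limma adjusted p = 0.630), and -0.04 without that tumour.

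Cd28 encodes the costimulatory receptor for CD80 and CD86. On the brighter probe set (1417597_at) its intensities were 1905, 1421 and 1698 in Notch1f/f tumours 1 to 3, against 980.4, 453 and 972 in Notch1+/+ tumours 1 to 3. Every Notch1f/f tumour lay above every Notch1+/+ tumour, and Notch1+/+ tumour 2 lay apart below the rest. The means were 1675 ± 243 and 802 ± 302 (SD, n = 3 each), a log2 difference of 1.12 ± 0.29 with a 95% interval of 0.46 to 1.78. On the other probe set (1437025_at) the intensities were 1249, 994 and 1118 in Notch1f/f tumours, against 645, 293 and 562 in Notch1+/+ tumours, with the tumours in the same order and a log2 difference of 1.20 ± 0.28. The adjusted p-values in limma were 0.249 and 0.212, and 1.56% and 0.921% of all tested probe sets had a smaller p. The exact two-sided permutation p was 0.1 for each, the smallest that 3 tumours against 3 allow. Leaving out each tumour in turn gave differences of 0.76 to 1.30 on the brighter probe set and 0.87 to 1.42 on the other, lowest without Notch1+/+ tumour 2.

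**Figure D3:**
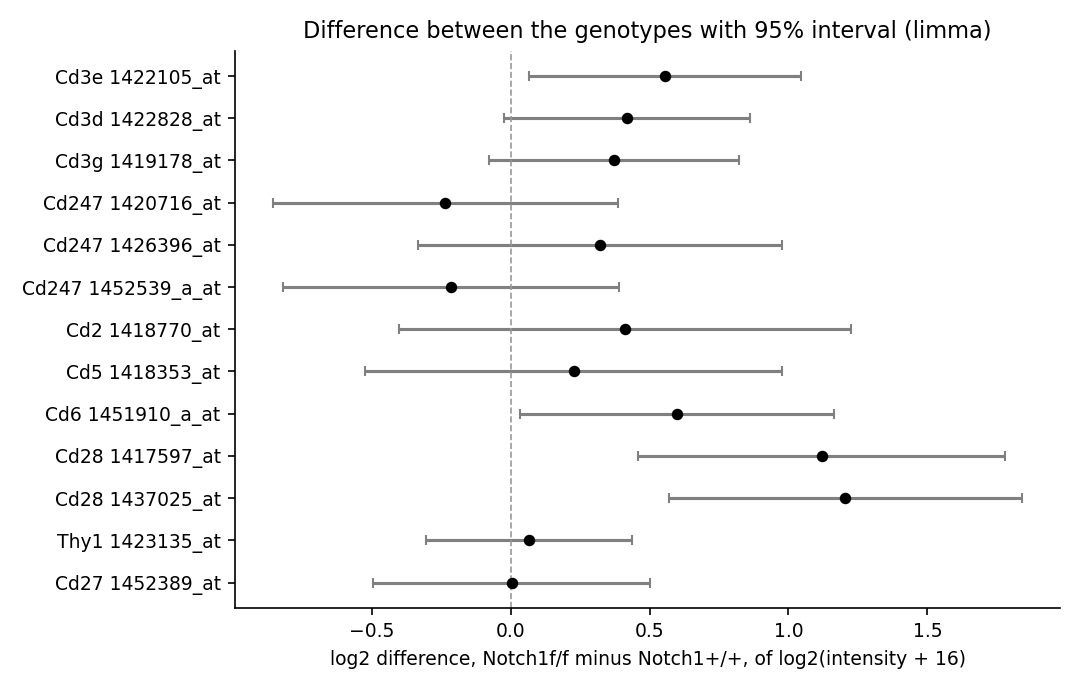
Log2 difference (Notch1f/f minus Notch1+/+) of the 13 tested member probe sets on the x axis, with 95% intervals from limma before any adjustment for multiple testing and a dashed line at 0. The intervals of both Cd28 probe sets, Cd3e and Cd6 lie above 0, and the other 9 span it.

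Cd27, a costimulator of the tumour necrosis factor receptor family that binds CD70, had 785, 662 and 462 in Notch1f/f tumours 1 to 3, against 637, 621 and 603 in Notch1+/+ tumours 1 to 3. The Notch1+/+ tumours lay within a narrow band, and the Notch1f/f tumours lay on both sides of it. The means were 636 ± 163 and 620.3 ± 17.1 (SD, n = 3 each), and the 95% interval of the log2 difference was -0.50 to 0.50 (limma adjusted p = 0.995). Thy1 had 3705, 3929 and 4962 in Notch1f/f tumours 1 to 3, against 3690, 4656 and 3657 in Notch1+/+ tumours 1 to 3. Each group had 1 tumour well above its other members, and the lower tumours of both groups were alike. Its log2 difference was 0.07 ± 0.16 (95% interval -0.30 to 0.44, limma adjusted p = 0.877). For both genes the interval bounds the difference without showing that the genotypes were equal, and the sign depended on single tumours. Whether the difference of Cd28 exceeds that of Cd27 was not tested.

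**Figure D4:**
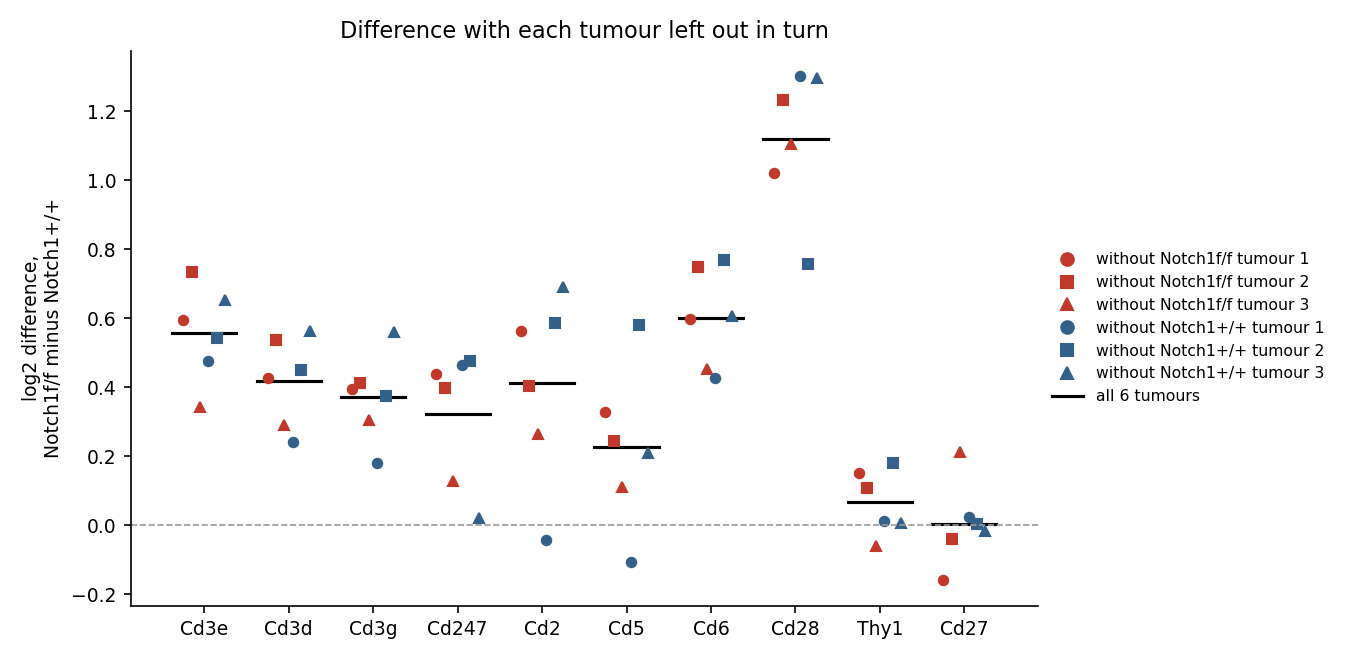
Log2 difference (Notch1f/f minus Notch1+/+, y axis) of the 10 genes with each tumour left out in turn, red for a Notch1f/f tumour and blue for a Notch1+/+ tumour, with the value over all 6 tumours as a black line. Cd28 stays between 0.76 and 1.30, while Cd2, Cd5, Thy1 and Cd27 cross 0.

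The neighbours of Cd28 on chromosome 1, Ctla4 and Icos, encode related receptors of T cells. Icos was singled out after its values were seen. Ctla4, an inhibitory receptor that competes with CD28 for the same ligands, had intensities of 543, 493 and 990.0 in Notch1f/f tumours 1 to 3, against 62.1, 8.5 and 125 in Notch1+/+ tumours 1 to 3. Its groups were far apart, and Notch1+/+ tumour 2, lowest for Cd28, was also lowest for Ctla4. The log2 difference of Ctla4 was 3.35 ± 0.57 (limma adjusted p = 0.117). Icos, a costimulator of activated T cells, had 100.3, 83.4 and 113 on its brightest probe set in Notch1f/f tumours 1 to 3, against 40.7, 63.2 and 53.9 in Notch1+/+ tumours 1 to 3. Its log2 difference was 0.75 ± 0.25 there (limma adjusted p = 0.295), and 0.28 and 0.42 on its other probe sets, of which the first overlapped between groups. Raph1, the neighbour on the other side of Cd28, had differences of -0.67 to -0.02 on 3 probe sets, all with overlapping groups.

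**Figure D5:**
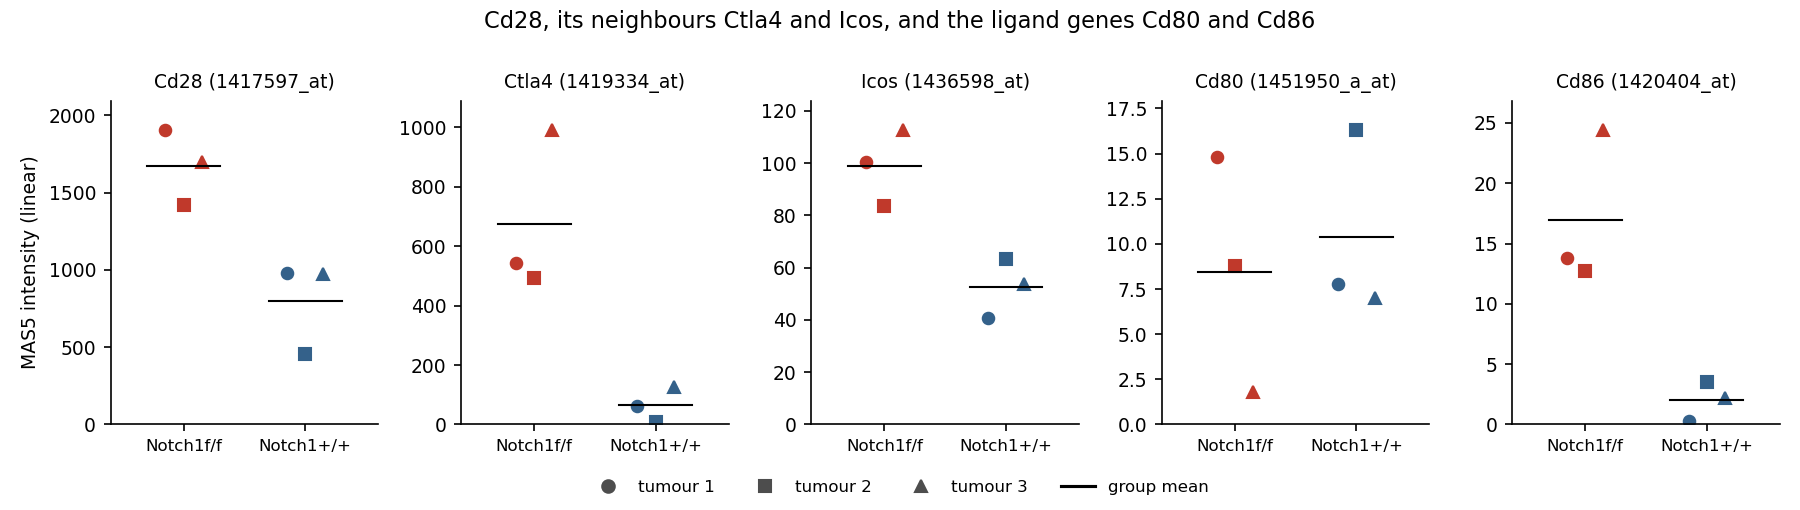
Linear MAS5 intensity of Cd28, its chromosomal neighbours Ctla4 and Icos, and the CD28 ligand genes Cd80 and Cd86 (brightest probe set each, y axes from 0), with Notch1f/f tumours left and Notch1+/+ tumours right and lines at the group means. The Notch1f/f tumours all lie above the Notch1+/+ tumours for Cd28, Ctla4, Icos and Cd86, and the groups overlap for Cd80. The Notch1+/+ values of Cd86 lie under the filter on dim probe sets at 7.60.

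The ligands of these receptors are carried by other cells and partly by T cells themselves. Of 5 measured ligand genes, 0 passed an adjusted p of 0.05, where 0.0415% of the 12042 tested genes did. Their median difference was -0.11, against -0.01 over all tested genes. By the brightest probe set, Cd86 was the 1 gene with an unadjusted p under 0.05, against 6.97% of all tested genes that were higher and 6.21% that were lower at that level. Its intensities were 13.8, 12.7 and 24.4 in Notch1f/f tumours 1 to 3, against 0.3, 3.5 and 2.2 in Notch1+/+ tumours 1 to 3 (limma adjusted p = 0.199). All its Notch1+/+ values lay under the filter on dim probe sets at 7.60, so Cd86 was tested only through its Notch1f/f values. The latter were near the filter too, and a dimmer Cd86 probe set overlapped. Cd80 had 1.8 to 14.8 in Notch1f/f tumours and 7.0 to 16.3 in Notch1+/+ tumours, with no separation. Alcam, the ligand of CD6, had no overlap on 3 tested probe sets and higher values in Notch1f/f, with log2 differences of 0.82 to 1.22 and adjusted p-values of 0.135 to 0.373 in limma. The unadjusted p was 0.053 on its brightest probe set and 0.00030 and 0.0011 on the other 2, both smaller than that of Cd86 (0.0013). Its brightest probe set had 65.5, 10.6 and 17.0 in Notch1f/f tumours 1 to 3, against 7.3, 7.3 and 8.0 in Notch1+/+ tumours 1 to 3. In Notch1+/+ tumours the other 2 had 1.3 to 8.1 (1426300_at) and 0.7 to 2.2 (1426301_at). These values lay about or under the filter at 7.60, so all 3 Alcam probe sets passed it through their Notch1f/f values. The p-values of Alcam and Cd86 are therefore no independent support for a difference. Cd48, the ligand of CD2, ranged from 93.9 to 277 in Notch1f/f tumours and from 77.5 to 308 in Notch1+/+ tumours. Cd70 had 5.3 to 11.0 in Notch1f/f tumours and 8.4 to 11.6 in Notch1+/+ tumours.

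Of 23 measured genes that act just downstream of these receptors, 13 had a difference above 0 and 10 below, with a median of 0.09. None passed in limma (0 of 23), and 2 were higher and 0 lower at an unadjusted p under 0.05, Plcg1, a phospholipase, and Lcp2, the adaptor SLP-76. These counts lay near the shares of all tested genes, of which 48.4% were above 0, 6.97% higher and 6.21% lower at that level. Plcg1 had a log2 difference of 0.83 ± 0.23 (adjusted p = 0.267) and Lcp2 of 0.61 ± 0.19 (adjusted p = 0.290), each on its brightest probe set, while a dimmer tested probe set of each was below 0. Sh3kbp1, an adaptor, and Ptpn22, a phosphatase that restrains receptor signalling, were next, at 0.43 ± 0.21 and 0.48 ± 0.25, and the 4 probe sets of Sh3kbp1 disagreed in direction.

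The lists of other T cell surface genes and of mature T cell genes were chosen with earlier results of these data known. Their counts are therefore not independent of these data. Of 20 tested genes of other T cell surface proteins, 15 had a difference above 0, against 48.4% of all tested genes, with a median of 0.62. None passed in limma (0 of 20), while 8 were higher and 0 lower at an unadjusted p under 0.05, against 6.97% and 6.21% of all tested genes. The groups of 7 did not overlap, all higher, where 9.21% of all tested genes were so and 9.14% were separated in the other direction. Besides Ctla4, the genes with the smallest p-values were Spn, the sialoglycoprotein CD43, at 693 ± 142 in Notch1f/f against 352 ± 98.1 in Notch1+/+ tumours, Cd69, an early activation marker, at 106 ± 47.4 against 34.7 ± 13.8, and Cd7, an early T lineage marker, at 36.4 ± 29.6 against 4.47 ± 2.93 (SD, n = 3 each). Their adjusted p-values were 0.250, 0.268 and 0.290 in limma, and a second Spn probe set overlapped. Cd7 had 2.3 to 7.8 in Notch1+/+ tumours, about or under the filter on dim probe sets at 7.60, and 10.8 in Notch1f/f tumour 2. It passed the filter through its Notch1f/f values, so its place among the 8 and the 7 is no independent support. Of 6 tested genes of mature T cells, 0 passed in limma and 5 were higher at an unadjusted p under 0.05, where 6.97% of all tested genes were. Their median was 1.64, and Il7r was the exception. Several were dim in the Notch1+/+ tumours, where Gimap3 had 11.6 to 23.8 and Ms4a4b had 14.4 to 41.5. Ccr7, at 0.5 to 16.9, and S1pr1, at 6.4 to 27.6, there had values below the 7.60 of the filter on dim probe sets.

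Markers of other cells were read in the same arrays, and their part in the values above was not tested. The marker lists too were chosen with earlier results of these data known. No marker of these lists passed an adjusted p of 0.05 in limma. Of 8 macrophage markers, 7 had a difference above 0, as did 48.4% of all tested genes, and 6 were higher at an unadjusted p under 0.05, as were 6.97% of all tested genes. Their summed intensity was 1431 to 2829 in the Notch1f/f tumours and 246 to 893 in the Notch1+/+ tumours, highest in Notch1f/f tumour 3 and lowest in Notch1+/+ tumour 1. Lyz2 gave 1122.5 of the sum in Notch1f/f tumour 3. The 6 B cell markers analysed summed to 117 to 279 in Notch1f/f and to 58.7 to 83.0 in Notch1+/+ tumours, with Pax5 and Cr2 under the filter. The 5 dendritic cell markers summed to 35.0 to 109.7 in Notch1f/f and 24.7 to 48.6 in Notch1+/+ tumours, with Xcr1, Flt3 and Siglech under the filter. The 6 fibroblast markers summed to 55.3 to 124 in Notch1f/f and 229 to 1270 in Notch1+/+ tumours, highest in Notch1+/+ tumour 2. The groups overlapped for each of these 6 genes. In Notch1+/+ tumour 1 most of the sum was Col1a2, at 190.1, while Col1a1 had 1.6 and Col3a1 had 4.5. The 4 endothelial markers summed to 217 to 233 in Notch1f/f and 143 to 280.2 in Notch1+/+ tumours, nearly all of it Pecam1. The 5 thymic epithelial markers summed to 40.9 to 57.2 in Notch1f/f and 45.4 to 50.9 in Notch1+/+ tumours. The 5 NK cell markers analysed summed to 2745 to 4484 in Notch1f/f and 1618 to 2435 in Notch1+/+ tumours, nearly all of it Gzma.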

How the data were processed

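Total RNA of 6 tumours was labelled with biotin and hybridised to Affymetrix 3' expression arrays, per the labels' protocols. The authors deposited linear signal intensities made with MAS5 (no version given), per the submitters' processing notes. Detection calls were not used here. Probe sets were named by an annotation table of the array. The members and gene lists were chosen with earlier results of these data known.

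The 64 control probe sets were not tested, nor were those under the 40th percentile of mean log2(intensity + 16), an intensity of 7.60, which left 27022. The test was limma 3.58.1 in R 4.3.3 (lmFit, then eBayes with a mean-variance trend), two-sided, with Benjamini-Hochberg adjustment over all tested probe sets and no covariate, since the labels give none besides age. A p-value printed without another name is from this fit. Tumours were numbered 1 to 3 within a group and not paired. A gene is represented by its brightest probe set. Named genes were all members, up to 4 genes with the smallest p-values of each list, and the 3 genes most like 2 groups of members in pattern. Icos, Raph1, Cd80 and single marker genes were named after their values were seen. On simulated arrays of 27022 probe sets with independent noise, the model, tested with known changes, called 10% of log2 changes of 1, 83.75% of those of 2, and 2 unchanged probe sets among 114 calls. Alternatives were a pseudocount of 1 or 64, no filter or one at the 60th percentile, scaling by quantiles or medians, a fit without trend, with array weights or without moderation, each tumour left out, an adjusted p of 0.10 and averaging the probe sets of a gene. Figures used matplotlib 3.10.9 under Python 3.11.15.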

Additional observations from a re-analysis of the deposited data

How the results depend on the processing

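No member probe set passed the adjusted p of 0.05 under any of the 15 alternative fits, or an adjusted p of 0.10 in limma as first fitted. The lowest adjusted p over these fits was 0.0905, for Cd28 (1437025_at) with array weights, and the highest for that probe set was 0.562, without Notch1f/f tumour 1. Cd28, Cd3e, Cd3d, Cd3g, Cd6 and Cd247 1420716_at kept their direction throughout. With array weights Cd5 and Thy1 turned to -0.096 and -0.052, with quantile normalisation Thy1 and Cd27 turned to -0.046 and -0.012, and with the mean of its probe sets Cd247 turned to -0.043. Leaving out each tumour in turn gave ranges that crossed 0 for Cd2 (-0.043 to 0.69), Cd5 (-0.11 to 0.58), Thy1 (-0.059 to 0.18), Cd27 (-0.16 to 0.21) and Cd247 1452539_a_at (-0.42 to 0.019). The cause was not tested. No paired analysis was possible because the labels give no pairing of the tumours. With 3 tumours per group, changes of 1 on the log2 scale were seldom called on simulated arrays, so a missed threshold does not show equality.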

Other observations

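The spread within a group was larger among Notch1+/+ tumours for 7 of the 10 genes, by the SD of log2(intensity + 16), where this held for 45.7% of all tested probe sets. The SD among Notch1f/f tumours and then among Notch1+/+ tumours was 0.30 and 0.79 for Cd2, 0.22 and 0.69 for Cd5, 0.11 and 0.38 for Cd3g, and 0.38 and 0.039 for Cd27. The 10 genes stand by their brightest probe sets, while the 45.7% covers all tested probe sets, dim ones included, so the 2 shares are not alike in kind. Notch1+/+ tumour 1, with the beta-actin 3'/5' ratio of 2.23, was the lowest tumour for Cd2, Cd5 and Cd3g. These differences in spread were not tested.

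The genes whose log2 levels over the 6 tumours were most like the mean of the 4 CD3 chains were Polr2m, Klf6 and Pigyl, with Pearson's r of 0.999, 0.995 and 0.995. For the mean of Cd5, Cd6, Cd28 and Cd27 they were Pigk, Ctu2 and Hfe, with r of 0.994, 0.992 and 0.992. The averaged genes did not all follow these means. Their own r ran from 0.50 (Cd247) to 0.97 (Cd3e) with the first mean and from -0.011 (Cd27) to 0.90 (Cd6) with the second. Such values are common with so few tumours, since 319 and 261 of 12042 genes had an r above 0.9 with these means.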
